A study of Homo sapiens with 12 samples.

Results

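The transcriptional response of VHL-restored renal carcinoma cells to 6 h without cystine was read from 6 of the 12 arrays of the series, 3 in control medium and 3 in cystine-deprived medium. RCC4 is an established line from a clear cell renal carcinoma without working VHL, and in the RCC4-VHL cells described here VHL had been put back. Control cells were kept in full DMEM with 10% FBS, and deprived cells in DMEM lacking cystine with 10% dialysed FBS, both with penicillin and streptomycin, so the comparison also holds any effect of dialysing the serum. The other 6 arrays, from RCC4-Vec cells (the vector line) in the same media, enter the estimate of the spread and the test of whether a response differed between the lines. The labels used here number 3 biological replicates per group without saying that each was a separate culture, so p-values measure the spread between these samples. They do not say how VHL was introduced or whether either line is a single clone. Genes were compared on deposited log2 values, with 1 probe set (the one with the highest mean over the 12 arrays) for each of 11963 genes. A log2 difference below is deprived minus control, with the standard error of the fit after ±.

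Cystine is the oxidized dimer of cysteine and the form in which cultured cells take it up, mainly through the cystine-glutamate exchanger of SLC7A11 and SLC3A2. Cysteine is needed for protein synthesis and, with glutamate and glycine, for glutathione, the main small-molecule antioxidant of the cell. When an amino acid runs short, uncharged tRNA activates the kinase GCN2, which phosphorylates the initiation factor eIF2, lowers general translation and favours translation of the transcription factor ATF4. ATF4, with C/EBP partners, induces transporters, tRNA synthetases, biosynthetic enzymes and stress regulators through composite promoter elements. VHL is the substrate receptor of a ubiquitin ligase that marks the hypoxia-inducible factors (HIF) for degradation, and clear cell renal carcinomas usually lose it.

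Array medians lay between 7.12 and 7.18, and no pair of arrays held identical values. The probe set for VHL was dim, at 5.95, 6.001 and 6.02 in control and 5.94, 5.93 and 5.94 in deprived medium, a difference of -0.05 ± 0.05 (limma adjusted p = 0.583), and cannot check that VHL was put back. Of 14 genes listed as renal and epithelial markers, 11 lay above the dimmest tercile of genes, among them the renal factor PAX8 and the keratins KRT8 and KRT18. The 11 also include vimentin and CDH2, which mesenchymal cells express, whereas CUBN, LRP2 and CDH1 lay within the dimmest tercile. Of 7 measured blood markers 6 lay in the dimmest tercile, as did all 8 markers of endothelium and fibroblasts. The summed log2 levels in control and deprived cells were 134 and 135 for the renal and epithelial markers, 38.7 and 38.8 for blood and 43.3 and 43.1 for endothelium and fibroblasts. These are bulk samples, in which fewer cells of a type and less RNA per cell cannot be told apart.

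Cystine deprivation changed 1392 of 11963 genes in VHL cells (11.6%), 737 upward (6.16% of genes) and 655 downward (5.48%), at a limma adjusted p under 0.05, the threshold of every call below, and a p-value given alone in brackets is that adjusted p. Counts within a gene list below stand beside these shares of all genes. The large changes were mostly rises. Called rises of at least 1.5-fold numbered 74 and falls 19, at 2-fold there were 24 rises and 1 fall, and at 4-fold 6 rises and 0 falls, whereas at 1.25-fold the counts were 259 and 217. The median size of a called difference was 0.27, and the median over all genes was 0.01. Calls also depended on the level. The dimmest tercile of genes held 94 rises and 19 falls (2.83% of 3987 called), the middle tercile 307 and 199 (12.7%), and the brightest tercile 336 and 437 (19.4%). Rises made up 52.9% of the calls with the values as deposited, 52.3% after quantile normalization and 40.6%, 581 against 849 falls, once every array was centred on its own median.

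**Figure D1:**
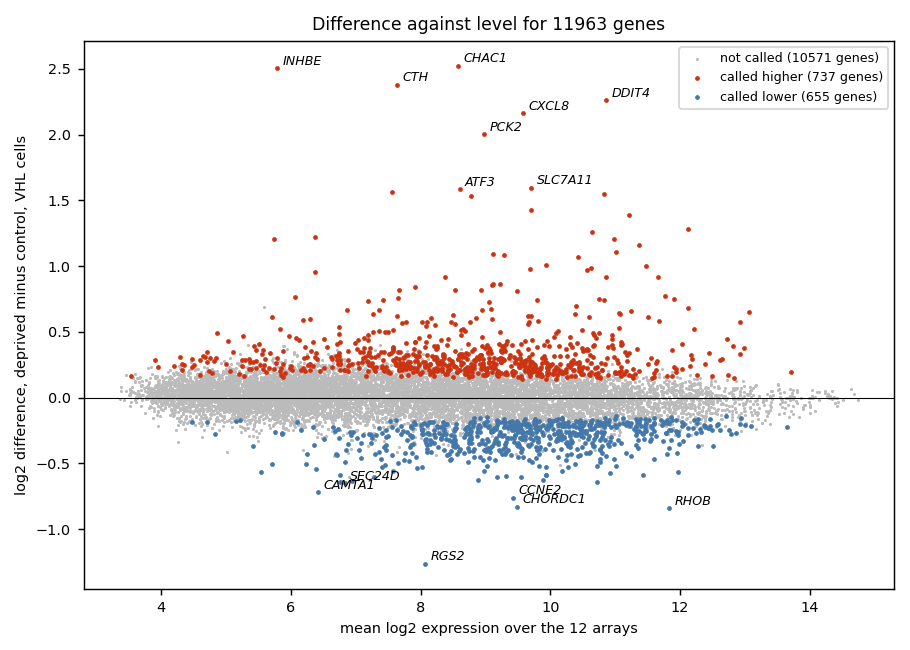
The log2 difference between deprived and control VHL cells (vertical axis) is plotted against the mean log2 level over the 12 arrays (horizontal axis) for 11963 genes, with 737 called higher in red, 655 called lower in blue and the rest in grey. The points above 1.5 are all called higher, and RGS2 is the lowest point, at -1.26.

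The number of calls rested on individual arrays. Leaving out 1 VHL array at a time gave 764 calls without control replicate 1, 849 without control replicate 2, 822 without deprived replicate 1 and between 968 and 1302 without each of the others. A total of 596 genes, 342 higher and 254 lower, were called in the full fit and in all 6 of these fits, and most genes named below are among them.

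**Figure D2:**
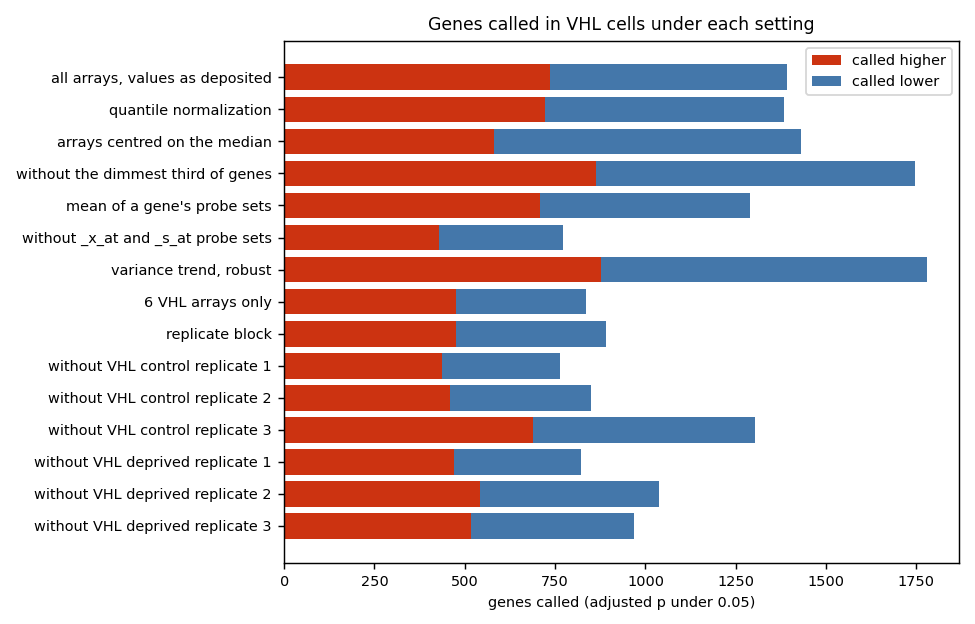
Bars give the number of genes called higher (red) and lower (blue) in VHL cells under each setting of the processing, starting at 0. The counts run from 764 without control replicate 1 to 1780 with a variance trend and robust moderation, beside 1392 with the values as deposited.

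Genes of cystine supply and glutathione breakdown held some of the largest rises. CHAC1, which cleaves glutathione, read 7.04, 6.89 and 7.09 on the control arrays and 9.54, 9.45 and 9.59 on the deprived arrays. All 3 deprived arrays lay far above all 3 controls, a rise of 2.52 ± 0.10 or 5.76-fold (limma adjusted p = 3.38e-09). CTH, the transsulfuration enzyme that makes cysteine from cystathionine, read 6.62, 6.51 and 6.40 on the control arrays and 8.85, 8.95 and 8.87 on the deprived arrays, a rise of 2.38 ± 0.09 or 5.2-fold (2.08e-09). CBS, the enzyme before CTH, rose by 0.77 ± 0.12 from 6.18, 6.27 and 6.01 in control to 6.69, 7.05 and 7.02 in deprived medium (0.00170). Both subunits of the cystine-glutamate exchanger rose. The transport subunit SLC7A11 went from 9.13, 8.85 and 8.90 in control to 10.51, 10.51 and 10.64 in deprived medium, or 3.02-fold, and the partner chain SLC3A2 rose by 0.61 ± 0.05. OPLAH, which returns 5-oxoproline from glutathione breakdown to glutamate, rose by 0.29 ± 0.06 (0.00530). In all, 6 of 23 measured genes of cystine and glutathione metabolism rose and 1 fell, against 6.16% and 5.48% of all genes, with a median of 0.11. The faller was GCLM, the modifier subunit of the enzyme that starts glutathione synthesis, at -0.36 ± 0.11 (0.0489). It was called in 1 of the 6 fits that leave out an array, with adjusted p without control replicate 1 (0.179), control replicate 2 (0.136), deprived replicate 1 (0.157), deprived replicate 2 (0.0721) or deprived replicate 3 (0.0822). GPX4, the peroxidase that removes lipid hydroperoxides with glutathione, gave 0.11 ± 0.05 (0.147, 95% interval 0.01 to 0.21).

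Transcription factors and regulators around ATF4 rose in larger numbers than they fell. Of 19 measured members 11 rose and 3 fell, with a median of 0.40, and all 14 calls held without any 1 VHL array. ATF3, a stress-induced partner of ATF4, read 7.37, 7.34 and 7.20 on the control arrays and 9.05, 8.81 and 8.80 on the deprived arrays, a rise of 1.58 ± 0.07 or 3-fold (limma adjusted p = 1.12e-08). DDIT3, which encodes the pro-death factor CHOP, read 7.95, 7.92 and 7.98 on the control arrays and 9.56, 9.45 and 9.44 on the deprived arrays and rose by 1.54 ± 0.06 (3.65e-09). No deprived array of either gene came within 1 log2 unit of a control array. NUPR1, a chromatin-associated stress protein, rose from 10.11, 10.23 and 10.28 in control to 11.45, 11.53 and 11.42 in deprived medium. TRIB3, a pseudokinase that restrains ATF4 and AKT, rose from 10.10, 9.87 and 10.16 in control to 11.31, 11.18 and 11.26 in deprived medium. Both lay between a log2 difference of 1.21 and 1.26. PPP1R15A, also called GADD34, recruits the phosphatase that reverses eIF2 phosphorylation and rose by 1.01 ± 0.06. CEBPG, a C/EBP partner of ATF4, rose by 0.86 ± 0.06. Among the fallers was EIF2AK2, the eIF2 kinase PKR, at -0.32 ± 0.05 (0.00223).

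Of 17 measured enzymes of serine, one-carbon and asparagine metabolism, 7 rose and 1 fell, with a median of 0.14. PCK2, mitochondrial phosphoenolpyruvate carboxykinase, read 7.51, 7.47 and 7.54 on the control arrays and 9.51, 9.64 and 9.38 on the deprived arrays, a rise of 2.004 ± 0.06 or 4.01-fold (limma adjusted p = 8.04e-10). ASNS, asparagine synthetase, read 10.04, 9.99 and 10.04 on the control arrays and 11.58, 11.63 and 11.51 on the deprived arrays and rose 2.92-fold (7.89e-10). The spread within each group was small beside these shifts. MTHFD2, the mitochondrial folate dehydrogenase, rose by 1.29 ± 0.05 from 11.41, 11.23 and 11.32 in control to 12.56, 12.65 and 12.60 in deprived medium. PSAT1, the transaminase of serine synthesis, rose by 0.86 ± 0.09, GOT1, the cytosolic aspartate transaminase, by 0.58 ± 0.06, and SHMT2, the mitochondrial serine hydroxymethyltransferase, by 0.41 ± 0.06 (5.59e-04). TYMS, thymidylate synthase, was called lower in the full fit at -0.15 ± 0.04 (0.0398) and in none of the fits without 1 VHL array, with adjusted p without control replicate 1 (0.106), control replicate 2 (0.103), control replicate 3 (0.0668), deprived replicate 1 (0.0722), deprived replicate 2 (0.0820) or deprived replicate 3 (0.118).

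Of 18 measured amino acid transporters, 6 rose and 0 fell, and these 6 calls held without any 1 VHL array. SLC1A4, a carrier of serine, alanine and cysteine, read 8.42, 8.46 and 8.45 on the control arrays and 9.59, 9.53 and 9.48 on the deprived arrays, a rise of 1.09 ± 0.05 (limma adjusted p = 1.35e-08). The sodium-coupled neutral carrier SLC38A2 rose by 0.77 ± 0.06 and its relative SLC38A1 by 0.24 ± 0.05. SLC7A1, a carrier of cationic amino acids, rose by 0.68 ± 0.04, the glutamine carrier SLC1A5 by 0.49 ± 0.06, and SLC7A5, which pairs with SLC3A2 to exchange large neutral amino acids, by 0.37 ± 0.05 (3.27e-04). The median over the list was 0.10.

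The tRNA synthetases of the cytosol and of mitochondria gave different counts. Of 17 cytosolic enzymes 9 rose and 0 fell, with a median of 0.17, and 7 of the 9 calls held without any 1 VHL array. CARS1, which loads cysteine, read 11.33, 11.32 and 11.38 on the control arrays and 12.13, 12.09 and 12.06 on the deprived arrays, a rise of 0.75 ± 0.05 (limma adjusted p = 1.51e-06). The enzymes for tryptophan, serine, glycine, alanine and tyrosine followed, with WARS1 at 0.75 ± 0.06, SARS1 at 0.66 ± 0.04, GARS1 at 0.65 ± 0.04, AARS1 at 0.53 ± 0.05 and YARS1 at 0.39 ± 0.05. Of 10 mitochondrial enzymes 0 were called, with differences from -0.17 to 0.15 and IARS2, the brightest, at -0.06 ± 0.05 (0.488). Without deprived replicate 3, 1 of them was called lower. Whether the lists differ from each other was not tested.

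**Figure D3:**
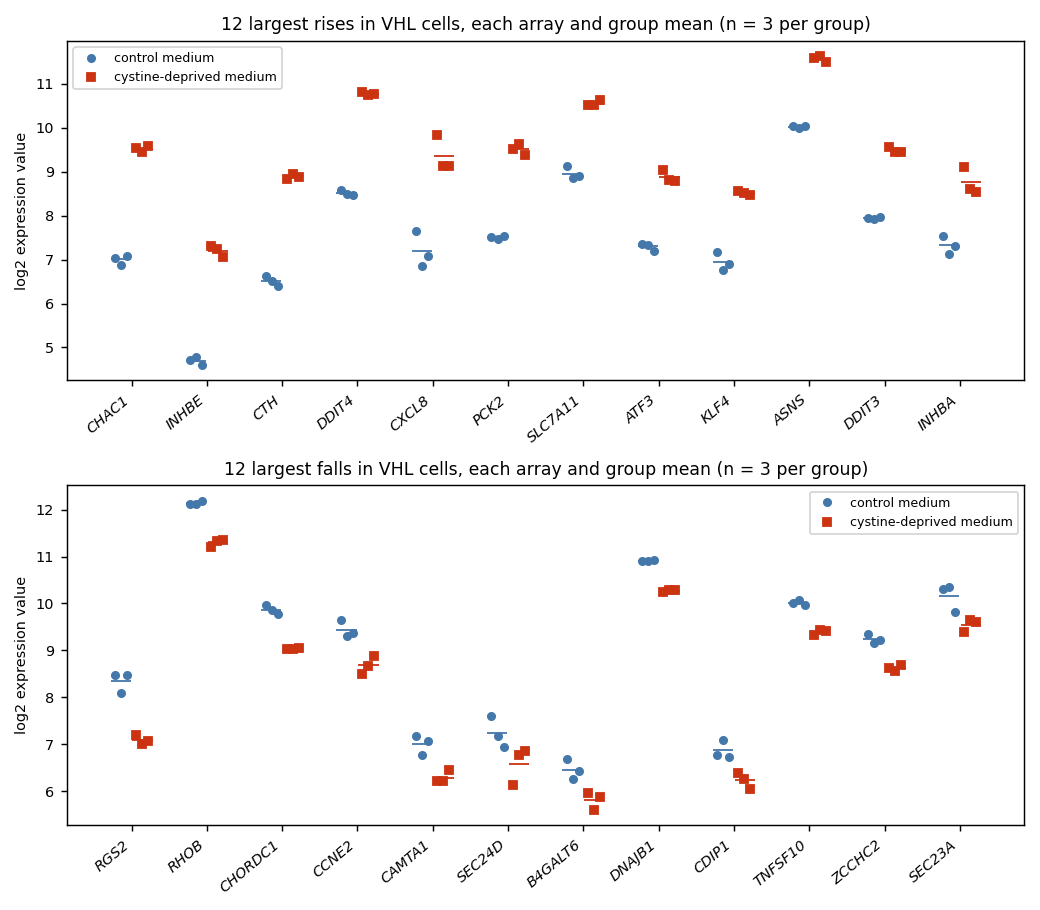
Log2 expression values of the 12 largest called rises (upper panel) and falls (lower panel) with non-overlapping groups, with 1 point per array, control in blue and deprived in red, and a bar at each group mean (n = 3). In the upper panel deprived points of CHAC1 lie between 9.45 and 9.59 above controls between 6.89 and 7.09, and in the lower panel those of RGS2 lie between 7.0 and 7.20 below controls between 8.08 and 8.49.

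Promoters of these genes were read for the composite element that ATF4 binds with C/EBP factors. RefSeq windows (assembly GRCh38.p14) run from 250 bases before to 50 after each annotated start, and a gene counts where any of its windows holds the letters TGATGNAA on either strand. The letters were found for 15 of the 32 genes with a window among the 39 called risers of the 5 lists above (46.9%), and for 4 of the 41 other members of those lists. Among all 584 called risers with a window 42 held them (7.19%), among 9563 tested genes 328 (3.43%), and among all 35116 windows 1270 (3.62%). A match is a run of letters, not a measured binding site. The 250 bases before the start are shown 5′ to 3′ on the strand of the gene, with the match in capitals, for the 3 genes of this group with the largest rise and a match, CHAC1 (chr15:40953221-40953470, plus strand), ATF3 (chr1:212565157-212565406, plus strand, 1 of several annotated starts) and ASNS (chr7:97872409-97872658, minus strand).
CHAC1: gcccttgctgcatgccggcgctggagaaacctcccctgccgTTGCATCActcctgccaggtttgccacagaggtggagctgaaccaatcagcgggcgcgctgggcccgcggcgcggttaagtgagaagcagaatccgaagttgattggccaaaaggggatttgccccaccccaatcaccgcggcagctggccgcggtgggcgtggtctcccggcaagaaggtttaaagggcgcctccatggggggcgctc
ATF3: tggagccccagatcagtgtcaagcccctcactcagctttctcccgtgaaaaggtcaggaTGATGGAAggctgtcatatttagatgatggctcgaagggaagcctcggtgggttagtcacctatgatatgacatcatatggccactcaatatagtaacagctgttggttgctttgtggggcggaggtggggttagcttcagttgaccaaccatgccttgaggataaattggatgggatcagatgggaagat
ASNS: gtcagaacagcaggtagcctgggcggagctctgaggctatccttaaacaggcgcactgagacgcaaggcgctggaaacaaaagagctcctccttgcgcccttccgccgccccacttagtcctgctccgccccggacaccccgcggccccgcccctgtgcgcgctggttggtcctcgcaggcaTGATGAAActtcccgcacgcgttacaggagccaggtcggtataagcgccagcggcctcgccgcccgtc
The match begins 209 bases before the start in CHAC1, 191 in ATF3 and 68 in ASNS. The other genes with a match were AARS1, CARS1, CEBPG, GARS1, GOT1, IARS1, SLC1A4, SLC1A5, SLC38A1, SLC3A2, SLC7A1 and TARS1.

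DDIT4 had the smallest adjusted p of all genes. It encodes REDD1, which restrains the growth kinase complex mTORC1 through the TSC complex, and read 8.58, 8.48 and 8.48 on the control arrays and 10.81, 10.74 and 10.77 on the deprived arrays. The difference was 2.26 ± 0.05 or 4.8-fold (limma adjusted p = 7.63e-12). IRS2, an adaptor of the insulin receptor, read 9.13, 9.11 and 9.13 on the control arrays and 9.90, 9.86 and 9.85 on the deprived arrays and rose by 0.74 ± 0.04 (9.78e-08), and GRB10, an adaptor that inhibits insulin signalling, rose by 0.46 ± 0.05. Of 23 genes of this group 5 rose and 0 fell (21.7% called beside 11.6% of all genes), with a median of -0.0031. The count was 3 without control replicate 1 or 2 or deprived replicate 3, and the calls of TSC2 (0.24 ± 0.06) and SESN1 (0.21 ± 0.06) were the ones lost.

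Among thioredoxin and peroxiredoxin genes 2 of 16 rose (12.5% called beside 11.6% of all genes), with a median of 0.01. TXNIP, which binds thioredoxin and restrains glucose uptake, read 10.67, 10.91 and 10.71 on the control arrays and 11.88, 11.88 and 11.85 on the deprived arrays, a rise of 1.11 ± 0.06 (limma adjusted p = 9.78e-08). TXNRD1, the reductase that recharges cytosolic thioredoxin, rose by 0.52 ± 0.04 (9.87e-06). NRF2 is the factor that induces many antioxidant enzymes, and 4 of 23 genes of its pathway rose and 1 fell (median 0.04). The risers of this list were largely transcription factors. The list leaves out SLC7A11, TXNRD1 and HMOX1, which rose and are counted in other lists here. The small MAF proteins MAFF and MAFG, which pair with NRF2, rose by 0.69 ± 0.10 and 0.36 ± 0.07, and the related factor NFE2L1 by 0.40 ± 0.04. UGDH, which makes UDP-glucuronate for conjugation, fell by 0.52 (9.47e-04).

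Iron and haem genes moved in both directions, 3 higher and 3 lower of 20 (30% called beside 11.6% of all genes). Their median was 0.01. TFRC, the transferrin receptor that brings iron into the cell, read 12.25, 12.07 and 12.08 on the control arrays and 12.69, 12.73 and 12.70 on the deprived arrays and rose by 0.57 ± 0.06 (limma adjusted p = 4.42e-05). HMOX1, which releases iron from haem, rose by 0.45 ± 0.09 (0.00783), and the metal importer SLC39A14 by 0.30 ± 0.05. FBXL5, which marks the iron regulatory protein IRP2 for degradation, fell by 0.34 (0.00623), though a probe set of neither the _x_at nor the _s_at kind gave -0.15 (adjusted p = 0.355). The count of falls was 1 without control replicate 1 or deprived replicate 1. ACSL4, which loads polyunsaturated fatty acids into lipids, gave -0.40 ± 0.16 (0.117, 95% interval -0.74 to -0.06). In the methionine cycle and polyamine genes 1 rose and 2 fell of 16 (18.8% called beside 11.6% of all genes). AMD1, which makes decarboxylated S-adenosylmethionine for polyamines, fell by 0.52 (7.45e-05) and held without any 1 VHL array. SMOX, spermine oxidase (0.25 ± 0.07), was not called without control replicate 1 (0.129), control replicate 2 (0.0772), deprived replicate 1 (0.126) or deprived replicate 2 (0.0644), and MAT2A, which makes S-adenosylmethionine (-0.20 ± 0.05), not without control replicate 1 (0.0795), control replicate 2 (0.0819), control replicate 3 (0.0571), deprived replicate 1 (0.113) or deprived replicate 2 (0.0670).

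With VHL put back, 8 of 30 measured HIF genes and targets rose and 2 fell, with a median of 0.04. The 8 rises held without any 1 VHL array. STC2, a secreted glycoprotein also induced by ATF4, read 10.26, 10.34 and 10.29 on the control arrays and 11.71, 11.70 and 11.63 on the deprived arrays, a rise of 1.39 ± 0.05 or 2.61-fold (limma adjusted p = 1.02e-09). VEGFA, the angiogenic growth factor, read 9.98, 9.66 and 9.82 on the control arrays and 10.56, 10.54 and 10.61 on the deprived arrays and rose by 0.75 ± 0.10 (3.77e-04). The other probe sets of VEGFA gave 0.68, 0.54 and 0.47. The vasoactive peptide genes EDN1, endothelin 1, and ADM, adrenomedullin, rose by 0.60 ± 0.08 and 0.41 ± 0.05, CCNG2, an atypical cyclin, by 0.60 ± 0.08, and NDRG1 by 0.38 ± 0.06. SLC2A1, the glucose transporter GLUT1, rose by 0.28 ± 0.06 (0.00882) on its brightest probe set, but gave 0.10 (adjusted p = 0.259) as the mean of its probe sets and -0.08 (adjusted p = 0.647) without _x_at and _s_at probe sets. EGLN1, the main HIF prolyl hydroxylase, fell by 0.27 (0.00297), and the count of falls was 1 without control replicate 1 or 2 or deprived replicate 1, 2 or 3. Among 23 glycolysis genes, many of them HIF targets, 0 were called in either direction, with differences from -0.22 to 0.17. GAPDH, the brightest, was not called (limma adjusted p = 0.989, 95% interval -0.09 to 0.08). Without control replicate 3 the glycolysis list had 2 rises and 1 fall.

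Of 24 cytokines, chemokines and related inflammatory genes, 9 rose and 1 fell, with a median of 0.11. CXCL8, interleukin 8, which attracts neutrophils, read 7.65, 6.86 and 7.09 on the control arrays and 9.84, 9.13 and 9.12 on the deprived arrays. The groups did not overlap, but replicates spread more than for the amino acid genes, with replicate 1 highest in both groups, and the rise was 2.16 ± 0.21 or 4.47-fold (limma adjusted p = 3.27e-05). IL6 read 9.26, 8.82 and 9.01 on the control arrays and 10.40, 10.03 and 9.85 on the deprived arrays and rose by 1.07 ± 0.16 (9.05e-04). PTGS2, the inducible cyclooxygenase of prostaglandin synthesis, read 5.17, 4.74 and 5.32 on the control arrays and 5.91, 5.96 and 6.22 on the deprived arrays and rose by 0.95 ± 0.13 (5.48e-04). The neutrophil chemokines CXCL2, CXCL1 and CXCL3 rose by 0.76 ± 0.14, 0.73 ± 0.11 and 0.59 ± 0.10. IL1R1, the receptor of interleukin 1 (-0.28 ± 0.07, 0.0281), was the faller and was not called without control replicate 1 (0.101), control replicate 2 (0.0960), deprived replicate 1 (0.105) or deprived replicate 3 (0.0712). TNF was dim, at 5.71, 5.78 and 5.87 in control and 5.98, 5.78 and 5.78 in deprived medium, with overlapping groups and a difference of 0.06 ± 0.07 (0.595, 95% interval -0.08 to 0.21). Deprived replicate 1 was the highest deprived array in 7 of the 9 risers (77.8%) and in 335 of all 737 risers (45.5%), and control replicate 1 the highest control in 6 (66.7%) and in 175 (23.7%). The part of these arrays in the result was not tested beyond the fits without them, which called 9 members higher without control replicate 1 and 8 without deprived replicate 1, and 8 of the 9 risers were called in all 6 fits without an array.

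Genes around NF-kB, the factor that drives many of these mediators, had 5 of 21 higher and 0 lower (23.8% called, median 0.10). TNFAIP3, the ubiquitin-editing inhibitor A20, read 9.77, 9.37 and 9.45 on the control arrays and 10.85, 10.37 and 10.34 on the deprived arrays and rose by 0.98 ± 0.13 (limma adjusted p = 4.83e-04). The adhesion molecule ICAM1 rose by 0.58 ± 0.09 and the transcription factor IRF1 by 0.35 ± 0.06. The count was 3 without control replicate 1 or 2 or deprived replicate 1 or 2. Among 22 growth factors and ligands of the EGF receptor, NRG1, neuregulin 1, rose by 0.51 ± 0.05 (2.97e-05) and PDGFA fell by 0.30 (0.00127), and no other member was called. The called share of this list was 9.09%, beside 11.6% of all genes. NRG1 gave 0.21 (adjusted p = 0.0741) on a probe set of neither the _x_at nor the _s_at kind, which was dim (mean 6.10 over the 12 arrays).

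Secreted members of the activin family moved most among the TGF-beta superfamily genes. Of 28 such genes 5 rose and 1 fell (21.4% called beside 11.6% of all genes, median 0.07). INHBE, the inhibin beta E subunit, read 4.72, 4.78 and 4.60 on the control arrays and 7.32, 7.24 and 7.06 on the deprived arrays, a rise of 2.51 ± 0.07 or 5.68-fold (limma adjusted p = 2.30e-10). INHBA, the subunit of activin A, read 7.54, 7.14 and 7.32 on the control arrays and 9.11, 8.62 and 8.54 on the deprived arrays and rose by 1.43 ± 0.14 (4.42e-05) on its brightest probe set, whereas the probe set of neither kind, _x_at or _s_at, gave 0.07 (adjusted p = 0.465). GDF15, a stress hormone that acts on appetite, rose by 0.92 ± 0.06 (4.11e-07) and likewise gave 0.05 (adjusted p = 0.801) on such a probe set. Probe sets of these genes therefore disagree, but those without a change lay in the dimmest tercile. Their means over the 12 arrays were 6.02 for INHBA and 4.78 for GDF15, beside 9.71 and 10.86 for the brightest. Which probe set reports the transcript was not tested. The count of rises was 3 without control replicate 1, and that of falls 0 without control replicate 1 or 2 or deprived replicate 2 or 3. The faller was INHBC, the inhibin beta C subunit, at -0.32. It was not called without control replicate 1 or 2 or deprived replicate 1, 2 or 3.

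Immediate early transcription factors of the AP-1 and EGR families respond within minutes to growth and stress signals. The list of these and other early response genes had 7 of 22 higher and 2 lower (40.9% called beside 11.6% of all genes, median 0.08). IER3, a survival-related early gene, rose by 0.58 ± 0.08, and EGR1 by 0.56 ± 0.08 from 7.63, 7.88 and 7.59 in control to 8.23, 8.37 and 8.17 in deprived medium (limma adjusted p = 0.00100). The AP-1 subunits FOSL1 and FOSB rose by 0.39 ± 0.07 and 0.34 ± 0.07. PHLDA2 fell by 0.49 (0.00851) but gave -0.19 (adjusted p = 0.0635) as the mean of its probe sets and 0.10 (adjusted p = 0.543) without the _x_at and _s_at kinds. Its probe set at 0.10 was dim, with a mean of 6.46 over the 12 arrays. The count of rises was 4 without control replicate 2, and that of falls 1 without control replicate 1 or 2 or deprived replicate 1. Feedback genes of the MAP kinase pathway had 5 of 17 higher and 1 lower. The ETS factor ETV5 rose by 0.67 ± 0.06, the ERK phosphatase DUSP6 by 0.64 ± 0.10, the stress kinase phosphatase DUSP10 by 0.31 ± 0.06 and SPRY2, an inhibitor of receptor signalling, by 0.33 ± 0.06. DUSP1 rose by 0.33 ± 0.05 and DUSP7 fell by 0.54, and these gave 0.09 (adjusted p = 0.491) and -0.21 (adjusted p = 0.107) as means of their probe sets. The other probe sets of DUSP1 and DUSP7 were dim, with means of 6.47 and 5.97 over the 12 arrays.

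KLF4 led the Krüppel-like factors, of which 4 of 14 rose and 0 fell (28.6% called beside 11.6% of all genes, median 0.17). It read 7.17, 6.77 and 6.90 on the control arrays and 8.56, 8.51 and 8.47 on the deprived arrays, a rise of 1.56 ± 0.10 or 2.96-fold (limma adjusted p = 8.73e-07). KLF7 rose by 0.41 ± 0.06 and KLF5 by 0.51 ± 0.06, although KLF5 gave 0.21 (adjusted p = 0.324) on a probe set of neither the _x_at nor the _s_at kind. That probe set was dim, with a mean of 5.62 over the 12 arrays. KLF2 (0.34 ± 0.08) was not called without control replicate 1 (0.0639) or control replicate 2 (0.0640).

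Targets of YAP and of serum response factor, which follow the state of the actin cytoskeleton, had 8 of 23 higher and 2 lower (median 0.05). CCN2, connective tissue growth factor, read 8.81, 8.86 and 8.68 on the control arrays and 9.75, 9.85 and 9.69 on the deprived arrays and rose by 0.98 ± 0.06 (limma adjusted p = 5.00e-07), and its relative CCN1 by 0.33 ± 0.07. AMOTL2, a YAP-binding junction protein, rose by 0.44 ± 0.08. Of the small GTPase system, RND3, which opposes RHOA, rose by 0.34 ± 0.05 and CDC42EP3 by 0.37 ± 0.05, while RHOB went from 12.12, 12.13 and 12.19 in control to 11.21, 11.33 and 11.36 in deprived medium, a fall of 0.84 (1.60e-06). The count of falls was 1 without control replicate 1 or 2 or deprived replicate 1 or 2, with RHOB always among them. The CArG box, the site of serum response factor, was found in a RefSeq window of 2 of 11 risers of the early gene and YAP or SRF lists (EGR1 and RND3), of 1 of 21 other members, and of 1.82% of tested genes. The 250 bases before the start of EGR1 (chr5:138465229-138465478, plus strand) hold 2 matches, in capitals, and EGR1 had the larger rise of these 2 genes.
EGR1: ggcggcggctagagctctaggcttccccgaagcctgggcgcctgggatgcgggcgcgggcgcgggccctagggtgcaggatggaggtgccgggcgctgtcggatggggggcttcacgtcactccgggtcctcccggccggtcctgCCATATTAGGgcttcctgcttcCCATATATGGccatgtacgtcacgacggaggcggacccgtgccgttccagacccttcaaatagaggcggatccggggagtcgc

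Among regulators of cell death, 3 of 17 genes of the BCL2 family rose and 0 fell (17.6% called beside 11.6% of all genes, median 0.09). PMAIP1, the BH3-only killer protein NOXA, read 10.58, 10.27 and 10.43 on the control arrays and 11.71, 11.56 and 11.51 on the deprived arrays, a rise of 1.16 ± 0.08 or 2.24-fold (limma adjusted p = 9.57e-07). BCL2L2, the survival protein BCL-W, rose by 0.55 ± 0.07 (4.36e-04), and HRK, another BH3-only protein, by 0.35 ± 0.07 (0.00529), so both pro-death and pro-survival members were among the 3. Of 16 death receptor genes 1 rose and 2 fell (18.8%), and 1 of these 3 calls held in all 6 fits without an array. It was TNFSF10, the death ligand TRAIL, which read 10.01, 10.07 and 9.96 on the control arrays and 9.32, 9.43 and 9.42 on the deprived arrays, a fall of 0.63 (9.99e-06). CASP8, the initiator caspase (-0.38 ± 0.09, 0.0176), was not called without control replicate 1 (0.0669), control replicate 2 (0.0696), deprived replicate 1 (0.0646) or deprived replicate 3 (0.0545), and TNFRSF12A, the TWEAK receptor (0.17 ± 0.05, 0.0435), not without control replicate 1 (0.137), control replicate 2 (0.132), deprived replicate 1 (0.104), deprived replicate 2 (0.0713) or deprived replicate 3 (0.117).

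Targets of p53 and the GADD45 genes had 6 of 17 higher and 1 lower, with a median of 0.18. The growth arrest gene GADD45A read 11.16, 10.90 and 10.87 on the control arrays and 11.97, 12 and 11.96 on the deprived arrays and rose by 0.998 ± 0.07 (limma adjusted p = 9.57e-07), and GADD45B rose by 0.97 ± 0.05 (5.28e-08). CDKN1A, the cell cycle inhibitor p21, rose by 0.38 ± 0.07 and DDB2, a DNA damage sensor, by 0.33 ± 0.05, while ZMAT3, an RNA-binding target of p53, fell by 0.47.

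Chaperones and co-chaperones had the lowest median of the 48 lists. Of 33 measured members 17 fell and 1 rose, with a median of -0.20 beside 0.01 over all genes and 5.48% of all genes lower. Of the 17 falls 13 held without any 1 VHL array. CHORDC1, a partner of HSP90, read 9.97, 9.86 and 9.77 on the control arrays and 9.02, 9.03 and 9.05 on the deprived arrays, a fall of 0.83 or 1.78-fold (limma adjusted p = 1.58e-05). DNAJB1, an HSP40 partner of HSP70, read 10.90, 10.90 and 10.93 on the control arrays and 10.24, 10.28 and 10.28 on the deprived arrays and fell by 0.64 (1.46e-05). Every deprived array of both genes lay below every control. DNAJA1, another HSP40 protein, fell by 0.59, HSPA2, an HSP70 paralog, by 0.59, STIP1, which links HSP70 to HSP90, by 0.43, and BAG3, an HSP70 co-chaperone, by 0.38. HSF1, the factor that drives heat shock genes, was the riser, at 0.16 ± 0.05 (0.0392), and was called in 1 of the 6 fits without an array, with adjusted p without control replicate 1 (0.151), control replicate 2 (0.0828), deprived replicate 1 (0.0759), deprived replicate 2 (0.106) or deprived replicate 3 (0.0894). The heat shock element, searched on both strands as 3 units that alternate between GAA and TTC with 2 bases between them, was found for 4 of the 17 fallers (CHORDC1, DNAJA1, HSP90AA1 and HSPA6), for 3 of 12 other members with a window, for 9 of 557 called fallers with a window (1.62%) and for 0.544% of tested genes. The bases before the start of CHORDC1 (chr11:90223050-90223299, minus strand), the largest fall of the list, hold 3 overlapping matches, the first of them 60 bases before the start.
CHORDC1: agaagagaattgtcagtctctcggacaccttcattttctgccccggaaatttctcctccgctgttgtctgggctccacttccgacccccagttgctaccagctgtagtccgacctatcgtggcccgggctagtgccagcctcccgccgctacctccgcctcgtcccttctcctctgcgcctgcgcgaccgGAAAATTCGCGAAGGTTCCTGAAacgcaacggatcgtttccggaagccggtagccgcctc

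The unfolded protein response of the endoplasmic reticulum gave 3 rises and 1 fall among 24 genes (16.7% called beside 11.6% of all genes, median -0.07). XBP1, the factor spliced by IRE1, read 9.37, 9.38 and 9.21 on the control arrays and 9.78, 10.01 and 10.05 on the deprived arrays and rose by 0.62 ± 0.08 (limma adjusted p = 2.47e-04), and HERPUD1, a part of the ER degradation machinery, by 0.37 ± 0.05 (4.23e-04). P4HB, protein disulfide isomerase (0.16 ± 0.05), was not called without control replicate 1 (0.172), control replicate 2 (0.126), deprived replicate 1 (0.0864), deprived replicate 2 (0.0882) or deprived replicate 3 (0.138), and MANF, a secreted ER protein (-0.21 ± 0.05), not without control replicate 1 (0.0631), control replicate 3 (0.0640) or deprived replicate 2 (0.0768). Coat and docking genes of vesicles leaving the ER had 7 of 22 lower and 1 higher, with a median of -0.13. SEC23A, the inner coat subunit, read 10.30, 10.35 and 9.81 on the control arrays and 9.40, 9.64 and 9.60 on the deprived arrays, with control replicate 3 well below the other controls, and fell by 0.61 (0.00744). SEC24D, a cargo-binding coat subunit (-0.65 ± 0.18, 0.0349), had the lowest difference of the list and was not called without control replicate 1 (0.139), control replicate 2 (0.0742) or deprived replicate 1 (0.113), and its other probe sets gave -0.04 and -0.05. Those other probe sets were dim, with means of 4.23 and 4.09 over the 12 arrays. GOLGA5, a Golgi tether, rose by 0.30 ± 0.04. The count of falls was 1 without control replicate 1 or deprived replicate 1 and 2 without control replicate 2, and SEC23A was the 1 fall that held in all 6 of these fits.

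Several genes of cell cycle entry and DNA replication fell. CCNE2, cyclin E2, which starts S phase with CDK2, read 9.64, 9.31 and 9.37 on the control arrays and 8.50, 8.66 and 8.88 on the deprived arrays, a fall of 0.76 (limma adjusted p = 5.15e-04). CDC25A, the phosphatase that activates CDK2, read 8.89, 8.80 and 9.01 on the control arrays and 8.28, 8.29 and 8.32 on the deprived arrays and fell by 0.60 (4.42e-05) on its brightest probe set, with 0.07 on the other, and SKP2, which marks CDK inhibitors for degradation, fell by 0.59 (2.25e-04) on its brightest probe set, with -0.46 and -0.01 on the others. The SKP2 probe set at -0.01 was dim, with a mean of 4.65 over the 12 arrays. MYC rose by 0.29 ± 0.05 (0.00249). CCND1, cyclin D1, gave -0.18 ± 0.08 (0.163, 95% interval -0.35 to -0.01). In all 3 of 28 genes of the G1 phase fell and 1 rose (14.3% called beside 11.6% of all genes). Without control replicate 3 the falls numbered 5. Of 37 replication genes 13 fell and 1 rose, with a median of -0.12. MCM10, which helps start the replication fork, read 9.62, 9.61 and 9.48 on the control arrays and 9.05, 8.99 and 8.88 on the deprived arrays and fell by 0.60 (2.35e-04). GINS1, a part of the replicative helicase, fell by 0.47, the sliding clamp PCNA by 0.37, and the clamp loader subunit RFC3 by 0.29. RFC5, another clamp loader subunit, fell by 0.37 and gave -0.14 (adjusted p = 0.0539) as the mean of its probe sets, and CDC6, which loads the helicase, fell by 0.27 and gave -0.17 (adjusted p = 0.118) without _x_at and _s_at probe sets. The count of replication falls was 8 without control replicate 1 or 2, and 7 held in all 6 fits. CDC45, the riser (0.20 ± 0.05), was not called without control replicate 2 (0.0661), deprived replicate 1 (0.0554) or deprived replicate 3 (0.0534). GMNN, geminin, which blocks relicensing of origins and is in neither list, fell by 0.58 from 11.14, 10.99 and 10.96 in control to 10.38, 10.51 and 10.47 in deprived medium (6.76e-05).

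The letters of the E2F site, TTTCCCGC or TTTGGCGC on either strand, were found for 6 of the 14 fallers of the G1 and replication lists with a window (42.9%), for 14 of 39 other members, for 35 of 557 called fallers (6.28%) and for 4.15% of tested genes. CDC25A had the largest fall among the 6, and the bases before its start (chr3:48188418-48188667, minus strand) hold the match 44 bases before the start.
CDC25A: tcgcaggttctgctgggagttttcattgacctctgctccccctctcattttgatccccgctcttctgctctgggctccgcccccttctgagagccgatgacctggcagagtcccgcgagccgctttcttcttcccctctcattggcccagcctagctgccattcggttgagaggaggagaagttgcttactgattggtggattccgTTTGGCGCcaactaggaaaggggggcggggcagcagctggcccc

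Mitosis genes gave 4 rises and 4 falls of 28 (28.6% called beside 11.6% of all genes), with a median of -0.04. CENPA, the centromeric histone, rose by 0.32 ± 0.06 (limma adjusted p = 0.00276) and CDCA8, borealin of the chromosomal passenger complex, fell by 0.25 (0.00922), and these 2 calls held in all 6 fits. The rises numbered 2 without control replicate 1 and 1 without control replicate 2 or deprived replicate 1 or 3, and the falls 2 without control replicate 1, 2 or 3 or deprived replicate 1 and 1 without deprived replicate 3.

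Sterol and fatty acid synthesis had 5 of 22 lower and 1 higher, with a median of -0.07. HMGCS1, an early enzyme of cholesterol synthesis, read 8.33, 8.41 and 8.09 on the control arrays and 7.83, 7.94 and 7.89 on the deprived arrays and fell by 0.39 (limma adjusted p = 0.00469), but gave -0.17 (adjusted p = 0.137) as the mean of its probe sets. The other HMGCS1 probe set was dim, with a mean of 6.13 over the 12 arrays. INSIG1, which holds the sterol sensor in the ER (-0.37 ± 0.08), was not called without control replicate 1 (0.0675) or deprived replicate 1 (0.0622). The other INSIG1 probe sets gave -0.09 and -0.16. SREBF1, a transcription factor of lipid synthesis, rose by 0.32 ± 0.07 (0.00877). The count of falls was 1 without control replicate 1 or deprived replicate 1, 2 without control replicate 2 or deprived replicate 3 and 3 without control replicate 3 or deprived replicate 2. Autophagy and lysosome genes had 7 of 30 higher and 0 lower (median 0.06). MAP1LC3B, the LC3 protein of the autophagosome membrane, rose by 0.23 ± 0.04 (0.00558) on its brightest probe set, with 0.09 on the other. ATG13, a part of the initiating kinase complex, rose by 0.25 ± 0.04 and gave 0.07 (adjusted p = 0.369) as the mean of its probe sets. The rises numbered 3 without control replicate 1 or deprived replicate 2 or 3 and 4 without control replicate 2. Of 29 respiratory chain genes 1 was called higher and 2 lower (10.3% beside 11.6% of all genes), with differences from -0.27 to 0.18. The complex I subunit NDUFB3 fell by 0.22 (0.00711) and held in all 6 fits. The rises numbered 0 without control replicate 1 or 2 or deprived replicate 1 or 3, and the falls 1 without control replicate 1 or 2 or deprived replicate 1 or 3.

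RGS2 had the largest fall of all called genes. It encodes an inhibitor of Gq-coupled receptor signalling and read 8.49, 8.08 and 8.48 on the control arrays and 7.20, 7.0 and 7.06 on the deprived arrays. Control replicate 2 was the lowest control, yet all 3 deprived arrays lay below it, a fall of 1.26 or 2.4-fold (limma adjusted p = 2.25e-05). RGS14 fell by 0.53 (0.00280), and the list had 3 falls and 1 rise of 17, RGS7 at 0.35 ± 0.08, which was not called without control replicate 2 (0.0589) or deprived replicate 2 (0.0539).

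Glycosyltransferases had 1 rise and 5 falls of 23. FUT1, the fucosyltransferase that makes the H antigen, read 5.41, 5.50 and 5.57 on the control arrays and 6.91, 6.57 and 6.61 on the deprived arrays, a rise of 1.21 ± 0.10 or 2.31-fold (limma adjusted p = 1.24e-05). B4GALT6, which makes lactosylceramide, fell by 0.64 (0.00376), with -0.13 on its other, dim probe set (mean 5.28 over the 12 arrays). MGAT2, a Golgi enzyme of complex N-glycans, fell by 0.37 (2.06e-04) on its brightest probe set. Its others gave -0.12 and -0.09, the last on a dim probe set (mean 5.86 over the 12 arrays). The falls numbered 2 without control replicate 1 or 2 or deprived replicate 3 and 3 without deprived replicate 1.

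Jumonji dioxygenases, which need iron and oxygen, split into 3 rises and 3 falls of 19. The histone demethylases KDM7A and KDM4A rose by 0.74 ± 0.10 and 0.48 ± 0.08, and JMJD6, a dioxygenase of arginine and lysine residues, fell by 0.48 (limma adjusted p = 2.18e-04). The falls numbered 1 without control replicate 1. In the Notch and Wnt genes, the Notch target HEY1 rose by 0.57 ± 0.06 (9.29e-05), and 4 of 22 fell, including the Wnt receptor FZD1 by 0.47 and DIXDC1, a Wnt pathway scaffold, by 0.42. The falls numbered 2 without deprived replicate 2. Interferon genes gave 5 rises and 2 falls of 28. The transcription factors IRF7 and IRF9 rose by 0.56 ± 0.06 and 0.26 ± 0.05 and XAF1 by 0.35 ± 0.08, whereas the effector IFIT1 fell by 0.54 (1.35e-04) and IFI44 by 0.42, with -0.01 (adjusted p = 0.960) for IFI44 without _x_at and _s_at probe sets. The interferon rises numbered 3 without control replicate 1 or 2 or deprived replicate 1.

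Among HOX genes 3 of 13 rose, HOXB2 by 0.43 ± 0.06 (limma adjusted p = 4.43e-04), HOXD10 by 0.27 ± 0.06 and HOXC6 by 0.18 ± 0.05 (0.0371), and the call of HOXC6 was lost without control replicate 1 (0.109), control replicate 2 (0.0654), control replicate 3 (0.0826), deprived replicate 1 (0.105) or deprived replicate 2 (0.126). The clock gene BMAL1 rose by 0.30 ± 0.05 (0.00261), 1 of 14 circadian genes (7.14% beside 11.6% of all genes), and without control replicate 1 there were 2. The zinc importer SLC39A8 fell by 0.39 (9.05e-04), 1 of 2 falls among 13 metallothionein and zinc genes, and the only 1 without control replicate 1 or 2 or deprived replicate 1. Of that list 15.4% was called, beside 11.6% of all genes. ADAMTS1, a secreted metalloprotease, fell by 0.32 (0.00343) among 19 proteases and inhibitors, of which 2 rose (15.8% called beside 11.6% of all genes). PLAU, urokinase, rose by 0.48 ± 0.11, not called without deprived replicate 1 (0.0547), and TIMP1, a metalloprotease inhibitor, by 0.17 ± 0.04, not called without control replicate 1 (0.0765), control replicate 2 (0.0707), deprived replicate 2 (0.0543) or deprived replicate 3 (0.0721). KRT7, an epithelial keratin, rose by 0.42 ± 0.07 (0.00319), the 1 riser among 22 renal and epithelial genes (9.09% called beside 11.6% of all genes). The 1 faller there was CDH6, a cadherin of the kidney (-0.16 ± 0.05, 0.0433), not called without control replicate 1 (0.0848), control replicate 2 (0.138), control replicate 3 (0.0670), deprived replicate 1 (0.142), deprived replicate 2 (0.0621) or deprived replicate 3 (0.0869).

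Other groups gave few or divided calls. Of 24 matrix and collagen genes 1 was called (4.17% beside 11.6% of all genes). It was SERPINH1, the collagen chaperone, at -0.21 ± 0.05 (limma adjusted p = 0.0253). That call was lost without control replicate 2 (0.0632), control replicate 3 (0.0757), deprived replicate 1 (0.0662), deprived replicate 2 (0.0590) or deprived replicate 3 (0.0674). Of 23 ribosome biogenesis genes RRP12 rose (0.17 ± 0.05) and nucleolin, NCL, fell (-0.14 ± 0.04), 8.7% called beside 11.6% of all genes. Neither call held in all 6 fits. The rises numbered 0 without control replicate 1 or 2 or deprived replicate 1, 2 or 3, and the falls 0 without control replicate 1 or 2 or deprived replicate 1, 2 or 3. Splicing genes gave 4 rises and 4 falls of 26, of which 0 rises and 1 fall held in all 6 fits. The splicing rises numbered 0 without control replicate 1, 1 without deprived replicate 1 and 2 without deprived replicate 2 or 3, and the falls 2 without control replicate 1 and 1 without deprived replicate 1. The 235 genes named ZNF, mostly zinc finger repressors, had 22 rises and 6 falls, 11.9% called beside 11.6% of all genes. Their rises numbered 9 without control replicate 1, 14 without control replicate 2, 12 without deprived replicate 1 or 2 and 11 without deprived replicate 3, and their falls 2 without control replicate 2 and 3 without deprived replicate 1.

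**Figure D4:**
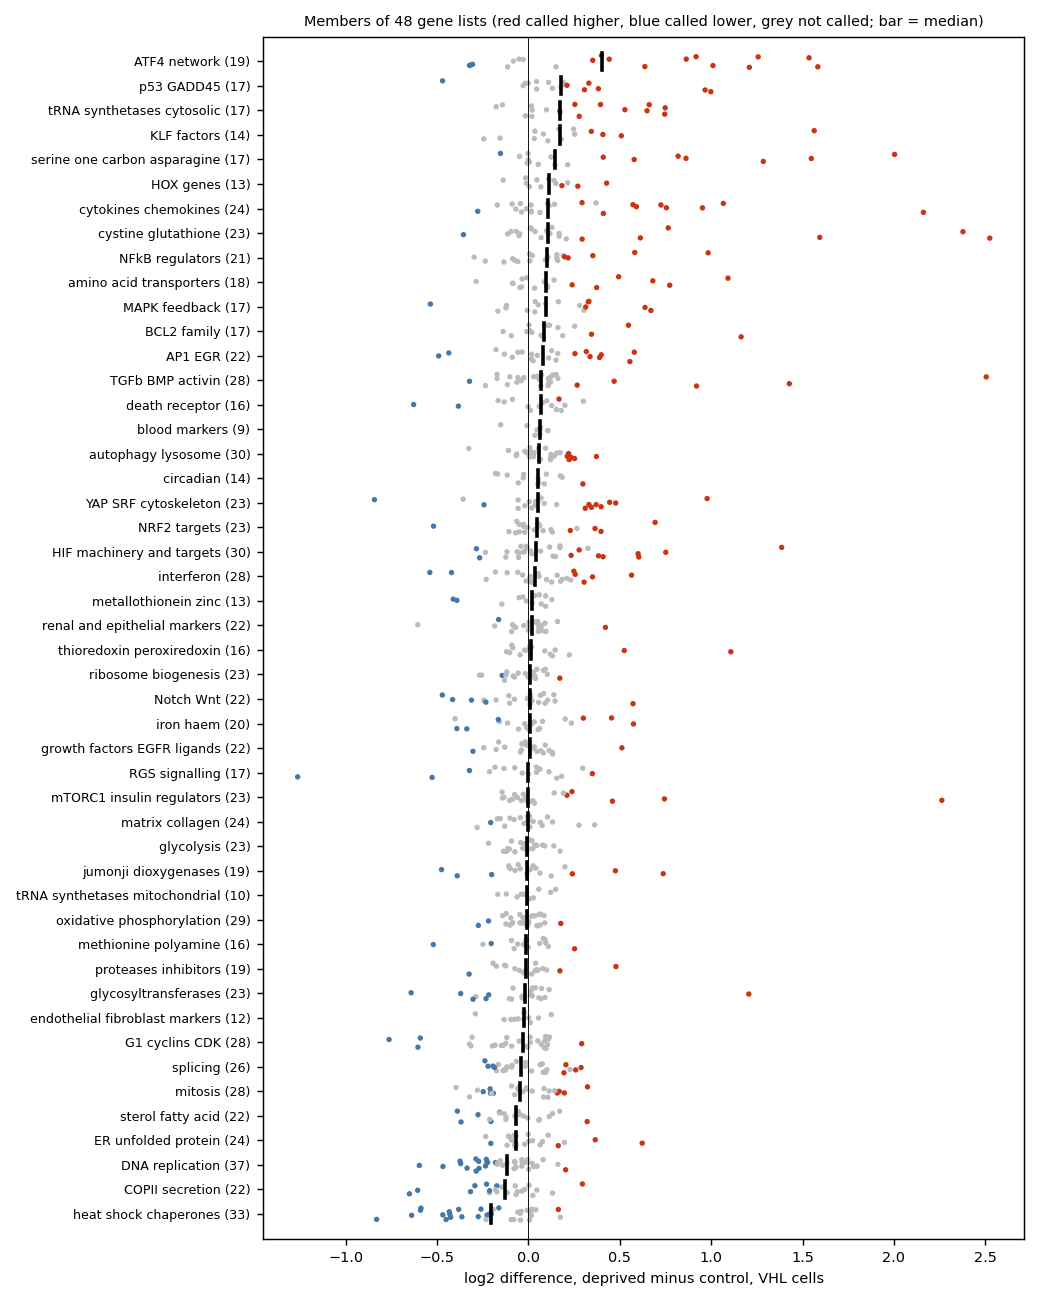
Each point is the log2 difference between deprived and control VHL cells of 1 gene, in 48 gene lists ordered by their median (black bar), with the number of measured members in brackets and called genes in red (higher) or blue (lower). The ATF4 network has the highest median, 0.40, and the heat shock chaperones the lowest, -0.20.

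Several of the largest changes lay outside these lists. ECM2, an extracellular matrix protein, read 6.12, 5.97 and 5.84 on the control arrays and 7.29, 7.07 and 7.23 on the deprived arrays, a rise of 1.22 ± 0.09 (limma adjusted p = 2.07e-06). PTX3, a secreted pattern recognition protein, read 9.06, 8.30 and 8.46 on the control arrays and 9.84, 9.60 and 9.63 on the deprived arrays and rose by 1.08 ± 0.15 (6.27e-04). Among the falls, CAMTA1, a calmodulin-binding transcription activator, read 7.18, 6.77 and 7.08 on the control arrays and 6.21, 6.21 and 6.44 on the deprived arrays, a change of -0.72 ± 0.10 (5.99e-04). CDIP1, a pro-apoptotic p53 target, fell by 0.63, ZC3HAV1, the antiviral protein ZAP, by 0.59, KCNJ8, a subunit of ATP-sensitive potassium channels, by 0.57, and the actin-assembling formin FHOD1 by 0.56. ZCCHC2, C2orf72 and RBM12 fell by 0.63, 0.60 and 0.56. EIF1AX, which guides the scanning ribosome to the start codon, fell by 0.56 (0.00709) and gave -0.17 (adjusted p = 0.178) without _x_at and _s_at probe sets. Its remaining probe sets, also of neither kind, gave -0.08 and -0.53. RP2 (-0.56 ± 0.16, 0.0358) was not called without control replicate 1 (0.140), control replicate 2 (0.0574), deprived replicate 1 (0.129) or deprived replicate 2 (0.0539).

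Other probe sets of the same genes, which the choice of 1 per gene did not use, read the same arrays. For 257 of the called risers 433 other probe sets were available, of which 355 (82.0%) had a positive difference, 125 were called higher and 0 lower. For 322 of the called fallers there were 554, of which 404 (72.9%) had a negative difference, 128 were called lower and 4 higher. Above the dimmest tercile, the shares of equal direction were 84.7% of 294 and 83.7% of 393. The other probe sets of SLC7A11 gave 1.37 and 0.68, that of CTH 1.70 and that of CXCL8 1.94. Another probe set above the dimmest tercile had the opposite sign, without being called, for some called genes. Among them were the fallers BUB1 (0.06), C2orf72 (0.06), CASP8 (0.04), CDC25A (0.07), COPB1 (0.0039), FZD1 (0.03) and RFC5 (0.08, beside -0.13 on another). The risers ATG13, P4HB and SLC2A1 were also among them, and this list is not complete.

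The response of VHL cells was then compared with that of Vec cells, which shares no arrays with it. Of 11963 genes 16 differed in their response (0.134%), by the interaction term at a limma adjusted p under 0.05, 15 with a higher difference in VHL cells (0.125%) and 1 with a lower one (0.00836%). All 16 were also called in VHL cells by themselves, and in 15 of them the change in VHL cells was the larger in size, HOXC6 being the exception. The count was 1176 at an unadjusted p under 0.05, ran from 11 to 16 without any 1 of the 12 arrays, and was 45 with a variance trend and robust moderation. Of the 1392 genes called in VHL cells, 337 were among the 500 called in Vec cells (4.18% of genes) in the same direction and 1054 were not called there, which does not by itself show that those responses differ.

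Many of the 16 are known targets or partners of ATF4. DDIT4 differed most clearly. In Vec cells it read 11.48, 11.44 and 11.44 in control and 12.73, 12.71 and 12.67 in deprived medium, a rise of 1.25 beside 2.26 in VHL cells, so the responses differed by 1.01 ± 0.06 (limma adjusted p = 1.31e-05). INHBE rose by 1.71 in Vec and 2.51 in VHL cells, a difference of 0.79 ± 0.10 (0.00498). ATF3 rose by 0.82 and 1.58 (0.76 ± 0.10, 0.00523), PCK2 by 1.31 and 2.004 (0.70 ± 0.09, 0.00695), MTHFD2 by 0.65 and 1.29 (0.63 ± 0.07, 0.00428), DDIT3 by 0.93 and 1.54 (0.60 ± 0.08, 0.0100) and STC2 by 0.81 and 1.39 (0.57 ± 0.07, 0.00428). For DDIT4 control means were 11.45 in Vec and 8.51 in VHL cells, and deprived means 12.70 and 10.775. Control means were also higher in Vec than VHL cells for ATF3 (8.70 and 7.30), MTHFD2 (11.95 and 11.32) and STC2 (11.04 and 10.295). The same held for DDIT3 (8.37 and 7.95) and PCK2. Deprived means were also higher in Vec cells for ATF3 (9.52 and 8.89), PCK2 (10.10 and 9.51) and STC2 (11.86 and 11.68). They were near equal for MTHFD2 (12.605 and 12.603), and lower in Vec cells for DDIT3 (9.30 and 9.49) and INHBE (6.49 and 7.20). Whether the starting level shaped the response was not tested. ATF4 itself, outside the naming rule and chosen after its values were seen, gave 0.11 in Vec and 0.44 in VHL cells (0.33 ± 0.06, 0.0416). For 7 other genes of amino acid and stress metabolism that were looked at, no difference was called. The values were closest for CHAC1 at 2.68 in Vec and 2.52 in VHL cells, CTH at 2.14 and 2.38, ASNS at 1.48 and 1.55 and SLC7A11 at 1.40 and 1.59. They were further apart for CBS at 0.03 in Vec and 0.77 in VHL cells, a difference of 0.73 ± 0.17 (adjusted p = 0.195), PPP1R15A at 0.60 and 1.01, a difference of 0.41 ± 0.09 (adjusted p = 0.160), and TRIB3 at 0.82 and 1.21, a difference of 0.39 ± 0.10 (adjusted p = 0.232).

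The remaining genes belong to other pathways. IRS2 gave 0.07 in Vec cells (12.10, 12.09 and 12.13 in control and 12.17, 12.18 and 12.17 in deprived medium) and 0.74 in VHL cells, a difference of 0.68 ± 0.06 (1.56e-04). TFRC gave -0.02 in Vec cells (13.33, 13.49 and 13.48 in control and 13.43, 13.42 and 13.41 in deprived medium) and 0.57 in VHL cells, a difference of 0.59 ± 0.08 (0.0100). In neither gene was the Vec response called, and control values of both genes were higher in Vec than VHL cells. TXNIP rose by 0.43 and 1.11 (0.68 ± 0.08, 0.00498) and CCN2 by 0.46 and 0.98 (0.52 ± 0.09, 0.0345). FUT1 gave 0.19 and 1.21 (1.02 ± 0.15, 0.0142). HOXC6 moved in opposite directions, as it fell in Vec cells (a difference of -0.29, 0.00751) and rose by 0.18 in VHL cells (0.47 ± 0.07, 0.0238). RNF41, a ubiquitin ligase of receptor turnover, and HS3ST3A1, a heparan sulfate sulfotransferase, are outside the naming rule and were chosen after their values were seen. RNF41 gave 0.32 and 0.82 (0.49 ± 0.08, 0.0345), and HS3ST3A1 0.08 and -0.40 (-0.48 ± 0.08, 0.0326).

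**Figure D5:**
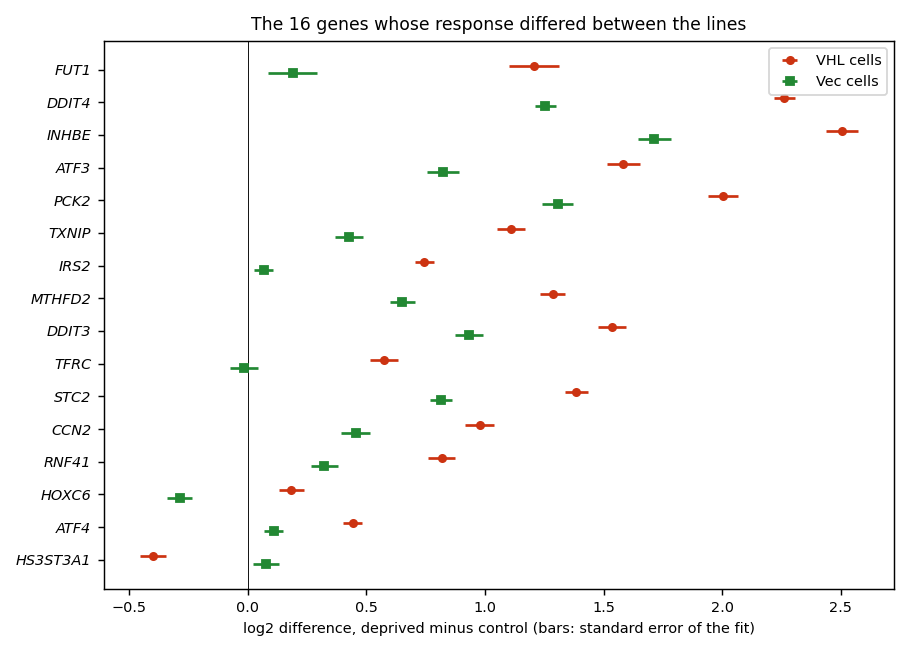
Log2 differences between deprived and control medium in VHL cells (red circles) and Vec cells (green squares) for the 16 genes whose responses differed, with bars for the standard error of the fit. The VHL point lies to the right of the Vec point for 15 genes, and for HS3ST3A1 it lies to the left, at -0.40.

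For some of the larger changes described above the values in Vec cells were smaller without a called difference. CXCL8 gave 0.55 in Vec cells (limma adjusted p = 0.190), IL6 0.31 (0.357), VEGFA 0.27 (0.179) and RGS2 -0.50 (0.0322). In control medium Vec cells already had a mean of 10.59 for CXCL8 and 11.15 for IL6. Deprived VHL cells stayed below these levels, at 9.36 and 10.09. For RGS2 the control means were 8.67 in Vec and 8.35 in VHL cells. The differences between the responses of CXCL8, IL6, VEGFA and RGS2 were 1.61 ± 0.30 (adjusted p = 0.0727), 0.76 ± 0.22 (adjusted p = 0.302), 0.49 ± 0.14 (adjusted p = 0.298) and -0.76 ± 0.17 (adjusted p = 0.171). None of these 4 passed the threshold, and a p that misses it does not show that the lines respond alike.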

How the data were processed

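RNA from 12 samples was read on 1-colour Affymetrix expression arrays. The authors deposited log2 expression values, 1 per probe set and array, and that unit was read from the values, which run from 3.26 to 14.79. How they were normalized is not given in the sources used here, and the lower quartiles (5.53 to 5.63) and upper quartiles (9.15 to 9.18) of the arrays lie close together. Values were used as deposited, with no filter, and detection calls were not used, so changes of dim genes may be understated. Of 22215 probe sets 19064 named 1 gene, 1043 several and 2108 none. Symbols were taken from RefSeq (GRCh38.p14) for the 19052 whose gene number was found there, whether or not the symbol changed. Each of 11963 genes was read from the probe set brightest on average, which matters for the 4310 genes that have several.

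In limma 3.58.1 under R 4.3.3, the 4 group means were fitted to the 12 arrays together (8 residual degrees of freedom, 12.7 after moderation), and two-sided p-values were adjusted across the 11963 genes after Benjamini and Hochberg. The fit was tested on simulated data with independent noise for each gene and array, which cannot show how calls depend on single arrays. The comparisons were deprived against control in VHL cells and the interaction of medium and line. For arrays, their number limits the precision.

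The comparison and 49 gene lists (48 by hand and all genes named ZNF) were chosen with earlier results of these data known, so lists are described by counts and medians with no test of their own. Named were VHL, the 25 largest called rises and falls with non-overlapping groups, for each list the 6 called members of smallest adjusted p and the first of the other direction, the brightest member of a list without calls, the 12 clearest differences between the lines, and SLC7A11, GPX4, TNF, CCND1, VEGFA, SLC2A1 and ACSL4. Alternatives were quantile normalization, median centring, leaving out the dimmest tercile of genes (means up to 6.47), averaging all probe sets per gene, leaving out _x_at and _s_at probe sets (designs that can match more than 1 transcript), robust moderation with a variance trend, the 6 VHL arrays alone, the replicate number as a block, and leaving out each array. Replicate numbers were not treated as pairs.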

Additional observations from a re-analysis of the deposited data

Results flagged for a closer look

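The responses of VHL and Vec cells differed by the interaction term (limma, Benjamini-Hochberg adjusted p under 0.05) in 16 genes. The difference, VHL minus Vec on the log2 scale, was 1.01 ± 0.06 for DDIT4 and 1.02 ± 0.15 for FUT1, the largest. It was 0.79 ± 0.10 for INHBE, 0.76 ± 0.10 for ATF3, 0.70 ± 0.09 for PCK2, 0.68 ± 0.08 for TXNIP and 0.68 ± 0.06 for IRS2. MTHFD2 gave 0.63 ± 0.07, DDIT3 0.60 ± 0.08, TFRC 0.59 ± 0.08, STC2 0.57 ± 0.07 and CCN2 0.52 ± 0.09. RNF41 gave 0.49 ± 0.08, HOXC6 0.47 ± 0.07, ATF4 0.33 ± 0.06 and HS3ST3A1, the 1 gene with a negative value, -0.48 ± 0.08.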

How the results depend on the processing

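The count of 1392 called genes in VHL cells was 771 (428 higher, 343 lower) without _x_at and _s_at probe sets, where fewer genes are tested, and 835 (476 and 359) with the 6 VHL arrays alone. Leaving out 1 VHL array gave between 764 and 1302 calls, 436 to 688 higher and 328 to 614 lower. The other settings, apart from the replicate block, kept the total within 1.5 times, from 1289 to 1780. The 16 called differences between the lines became 45 with a variance trend and robust moderation and ran from 11 to 16 without 1 array.

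The replicate number as a block gave 891 calls (475 higher, 416 lower) and 7 differences between the lines. Residuals of same-numbered control and deprived VHL arrays correlated at -0.27, 0.01 and -0.17 over all genes. Residuals cancel within a group of 3 arrays, so these values cannot show whether equal numbers mark samples handled together.

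Some directions turned. Without _x_at and _s_at probe sets, COPB1 gave 0.0039, PHLDA2 0.10 and SLC2A1 -0.084. As the mean of its probe sets BUB1 gave 0.035 and GAPDH 0.0036. Leaving out 1 VHL array, GAPDH, near 0 in the full fit, ran from -0.014 to 0.0064, positive without control replicate 2 or 3 or deprived replicate 3, and TNF from -0.0053 without deprived replicate 1 to 0.10. The cause of these shifts was not tested. Genes with 1 probe set have no second reading on these arrays, and with 3 arrays per group calls near the threshold came and went with single arrays.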
